A study of Homo sapiens with 6 samples.

Results

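Paraspeckles are nuclear bodies built on the long noncoding RNA NEAT1, which is bound along its length by RNA-binding proteins. Proteins of the DBHS family (NONO, SFPQ, PSPC1) coat and stabilise NEAT1, FET and hnRNP proteins join them, and cleavage factor I and HNRNPK act on the choice between the short and the long NEAT1 isoform. The genes that encode paraspeckle proteins are described here: 38 genes, taken by symbol from a given list, of 39020 genes that appeared in any of the 6 tables. The list was given with these data known, and no measured value entered the rule. All 38 genes were listed in both RNA-seq tables, 32 were listed in at least 1 iCLIP table and 31 in all 4.

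The samples were cultures of U2OS, a human osteosarcoma cell line. Individual-nucleotide crosslinking and immunoprecipitation (iCLIP), in which RNA crosslinked to a protein by ultraviolet light is recovered and sequenced, was done on FLAG-tagged TIRR (an RNA-binding regulator of the repair protein 53BP1) in cells of genotype TIRR_FLAG, with 2 libraries of irradiated and 2 of untreated cells. RNA-seq was done on WT cells, with 1 library of irradiated and 1 of untreated cells. Irradiated cells of both assays received 5 Gy of X-rays and had 4 h of recovery according to the labels, although the design text of the series names gamma radiation for the RNA-seq. The tagged TIRR came from a stable transfection, so the cells of both iCLIP groups carried it, while the WT cells of the RNA-seq did not. The empty-vector cells of the design were not analysed here. Nothing says that replicates came from separate cultures, so p-values reflect how far these libraries differ, a spread that may be technical.

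Gene counts summed to 400723 and 664777 in the irradiated iCLIP libraries and to 781997 and 799709 in the untreated ones. The RNA-seq libraries held 13023903 gene counts for irradiated cells and 13015406 for untreated cells. RNA-seq ratios are TMM-scaled, irradiated over untreated, and the range given with each is the exact 95% interval of counting error alone: with 1 library per condition there is no replicate check and no test. CDKN1A, MDM2 and FDXR, targets of p53 in the damage response, were all called higher in the irradiated iCLIP libraries (folds of 7.63, 5.15 and 8.97) and had RNA-seq ratios of 3.43, 3.59 and 2.35 in the direction of the labels. Of 9 osteoblast and mesenchymal markers, COL1A1, SPARC, VIM, RUNX2 and ALPL had at least 100 RNA-seq counts, with RUNX2, an osteoblast transcription factor gene, at 692 in irradiated and 855 in untreated cells. COL1A2 had 2 counts in irradiated and 6 in untreated cells, BGLAP had 4 in irradiated and 3 in untreated cells, and the osteoblast genes SP7 and IBSP were not listed in either RNA-seq library. Of 4 epithelial markers, KRT8 had 2641 counts in irradiated and 2613 in untreated cells and KRT18 had 3451 in irradiated and 3836 in untreated cells, while EPCAM had 57 in irradiated and 55 in untreated cells and CDH1 had 16 in irradiated and 5 in untreated cells. The leukocyte gene PTPRC had 12 counts in each RNA-seq library, and CD3E was listed in no table.

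TIRR iCLIP recovered RNA from most paraspeckle protein genes, and none passed the test for a change after irradiation. Together the 38 genes took 0.437% and 0.466% of iCLIP gene counts in irradiated cells (mean 0.451% ± 0.0208, SD, n = 2) and 0.475% and 0.452% in untreated cells (mean 0.463% ± 0.0164, SD, n = 2). The ranges of the groups overlapped. In RNA-seq the same genes took 0.783% of gene counts in irradiated and 0.785% in untreated cells. NEAT1 itself passed the test in iCLIP. It took 3.39% and 3.34% of gene counts in irradiated cells and 2.69% and 2.47% in untreated cells, and its log2 fold change, given with its standard error (SE), was 0.45 ± 0.082 (adjusted p = 0.00271, edgeR). Its RNA-seq ratio was 0.872 (0.835 to 0.911). In bulk samples such as these, fewer cells of a kind and less RNA per cell cannot be told apart, and an iCLIP count depends both on how much of an RNA a cell holds and on how much of it was crosslinked to TIRR.

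**Figure D1:**
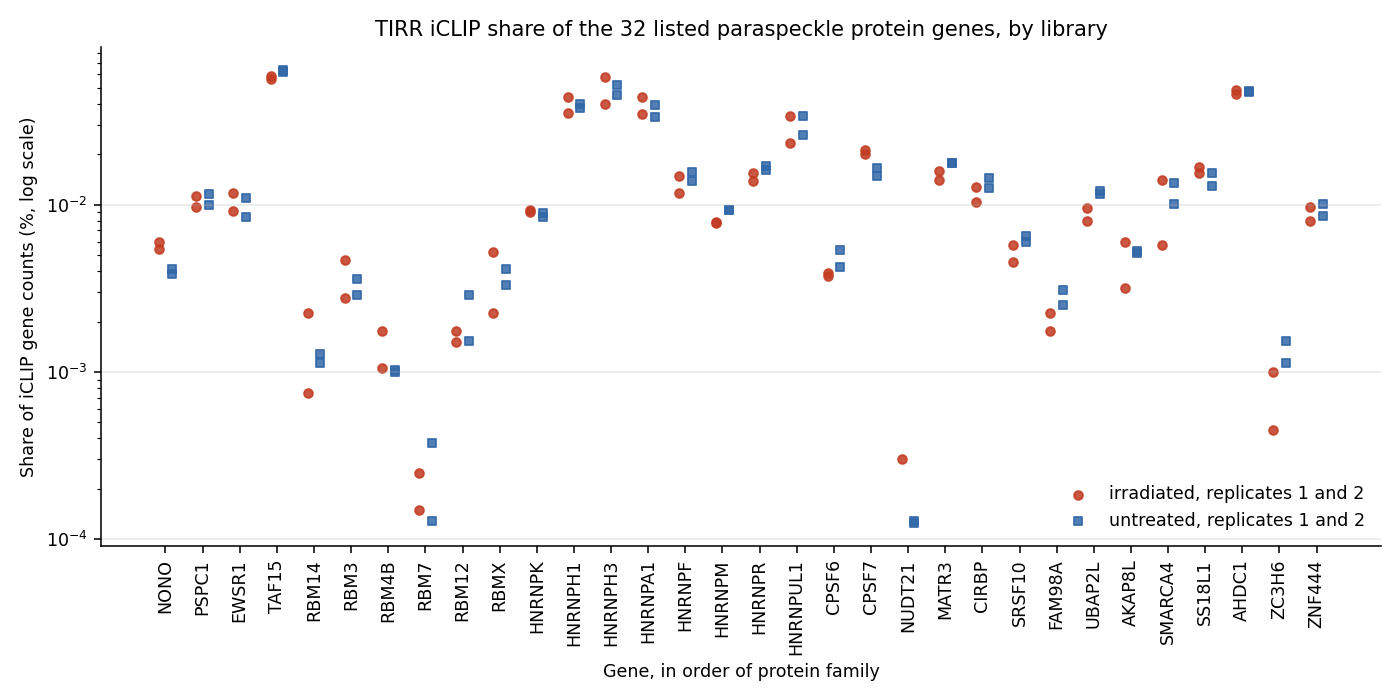
Share of all iCLIP gene counts (percent, log scale) of the 32 genes that the iCLIP tables list, in order of protein family, with circles for the 2 irradiated and squares for the 2 untreated libraries. TAF15, HNRNPH3 and AHDC1 lie at the top and RBM7 and NUDT21 at the bottom, and NUDT21 has a single circle because irradiated replicate 1 does not list it.

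Of the 32 listed genes, 27 had enough counts to be tested with edgeR's quasi-likelihood test. None of the 27 was called at an adjusted p of 0.05, against 3.5% of all 9230 tested genes (323 genes, with 2.43% higher and 1.07% lower in irradiated cells). At an unadjusted p under 0.05 there were 2 (7.41%), against 14.5% of all tested genes: CPSF7 and NONO. DESeq2 also called none, giving an adjusted p to 12 of them. The log2 fold change was positive for 13 genes and negative for 14 under TMM scaling and under DESeq2's size factors, and positive for 9 with library totals alone, which moved the median over all tested genes to -0.064. The median was -0.047, beside 0.0016 over all tested genes, and 18 of the 27 lay between the quartiles of all tested genes (-0.25 to 0.26). In 11 of the 27 genes (40.7%) the irradiated and untreated libraries did not overlap, 5 with irradiated above and 6 with irradiated below, against 44% of all tested genes (22% in each direction). The 95% interval of the fold change lay within 2-fold in either direction for 23 genes and within 1.5-fold for 12, which is the range of changes that remains possible at this depth.

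**Figure D2:**
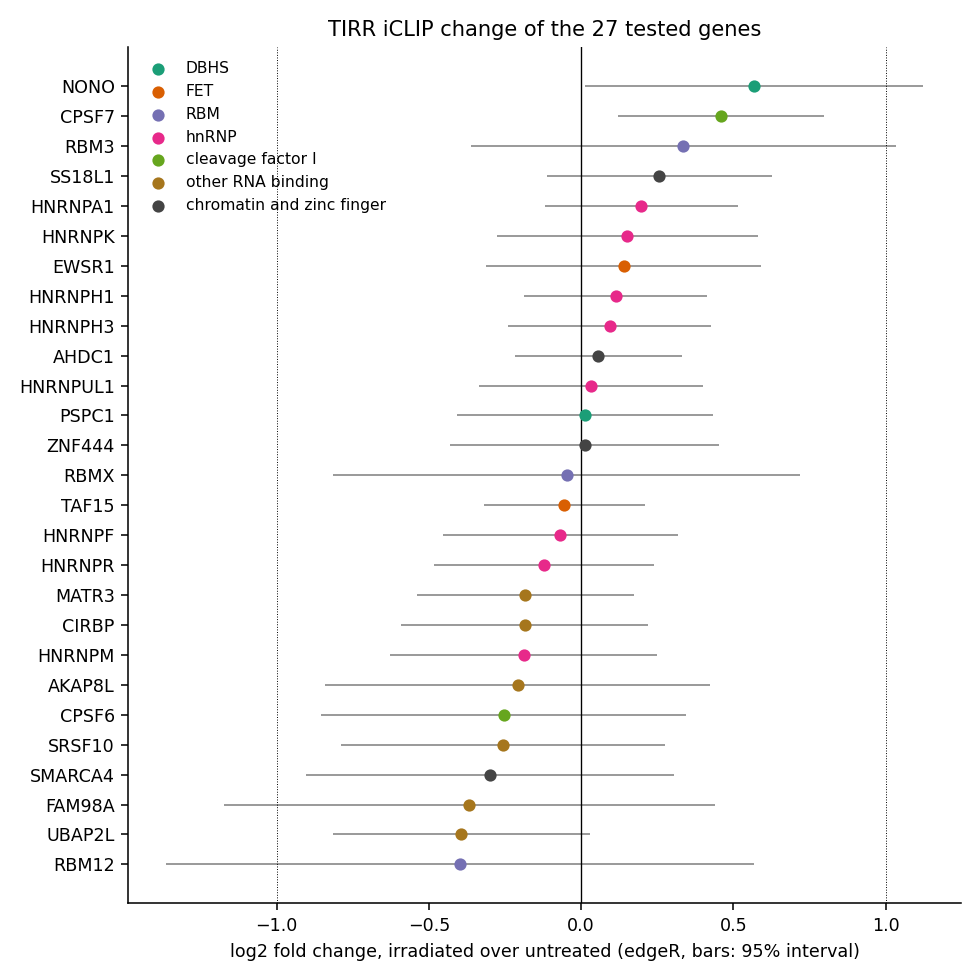
log2 fold change of TIRR iCLIP counts, irradiated over untreated, for the 27 tested genes, with points coloured by protein family, bars for the unadjusted 95% interval of edgeR, a solid line at 0 and dotted lines at a 2-fold change. Points run from -0.40 to 0.57, and only the bars of NONO and CPSF7 exclude 0.

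Of the 3 DBHS genes, NONO and PSPC1 had iCLIP entries and were tested, and SFPQ had no iCLIP entry. NONO (ENSG00000147140, chromosome X, 71283635 to 71301168, GRCh38.p14) encodes a protein on which paraspeckle assembly depends. It had 24 and 36 iCLIP counts in the irradiated libraries and 30 and 33 in the untreated libraries, or 61.7 and 55.1 CPM in irradiated cells and 37.5 and 40.3 CPM in untreated cells, where CPM are counts per 1000000 gene counts, scaled by the TMM method. The irradiated libraries were both above the untreated pair, and the means were 58.4 ± 4.70 CPM in irradiated and 38.9 ± 1.94 CPM in untreated cells (SD, n = 2 each). The fold was 1.48, with a 95% interval of 1.01 to 2.18, and the log2 fold change of 0.57 ± 0.26 (adjusted p = 0.328, edgeR) did not pass the adjusted threshold. In RNA-seq NONO had 9176 counts in the irradiated library and 9896 in the untreated library, a ratio of 0.917 (0.891 to 0.943).

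PSPC1 (ENSG00000121390, chromosome 13, 19671205 to 19782945) encodes a paralog of NONO that is often used as a paraspeckle marker. It had 45 and 64 iCLIP counts in the irradiated libraries and 90 and 79 in the untreated libraries, or 116 and 97.9 CPM in irradiated cells and 113 and 96.4 CPM in untreated cells. The groups overlapped, and the log2 fold change was 0.012 ± 0.20 (adjusted p = 0.991, edgeR) and the fold 1.01, with a 95% interval of 0.753 to 1.35. Its RNA-seq counts were 673 in irradiated and 700 in untreated cells, a ratio of 0.951 (0.854 to 1.06). Per kilobase of the length listed in the tables, untreated libraries gave PSPC1 0.782 iCLIP counts and NONO 0.674. The NONO entry was 266% of its RefSeq length, so its value is over a longer stretch than the gene. SFPQ (ENSG00000116560, chromosome 1, 35176380 to 35193145), whose protein pairs with NONO, was in none of the 4 iCLIP tables, with 5230 RNA-seq counts in the irradiated library and 5265 in the untreated library and a ratio of 0.982 (0.945 to 1.02).

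SFPQ was 1 of 6 paraspeckle protein genes (15.8%) without an entry in any iCLIP table. Of all genes that reached 100 RNA-seq counts in 1 or both libraries, 22.2% had no iCLIP entry. The others were TARDBP, which encodes the RNA-binding protein TDP-43, DAZAP1, an RNA-binding protein gene, WDR5, which encodes a subunit of histone methyltransferase complexes, ZNF335, a zinc finger gene, and FIGN, which encodes an AAA ATPase. Their RNA was present in RNA-seq. TARDBP had 2447 RNA-seq counts in the irradiated library and 2561 in the untreated library (ratio 0.945, interval 0.894 to 0.999), and DAZAP1 had 1752 in irradiated and 1805 in untreated cells (ratio 0.960, interval 0.898 to 1.03). WDR5 had 1233 counts in irradiated and 1123 in untreated cells (ratio 1.09, interval 1.001 to 1.18), and ZNF335 had 351 in irradiated and 385 in untreated cells (ratio 0.902, interval 0.778 to 1.04). The iCLIP tables list only genes with at least 1 count, and the listed rows of each table added up to its whole total, so an unlisted gene was assigned no count. A count of 0 allows a share of gene counts of up to 0.000749% and 0.000451% in the irradiated and 0.000384% and 0.000375% in the untreated iCLIP libraries (3 counts of the total, counting error only). The RNA-seq share of SFPQ was 0.0402% in irradiated and 0.0405% in untreated cells, well above those limits. The limits hold only if the authors' counting could assign reads to the gene: how it treated overlapping genes is not stated, so an absent entry is not a measured low share.

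The share of genes without an iCLIP entry changed little with RNA-seq level. It was 25.9% of genes with 50 to 99 untreated RNA-seq counts and 18.8% of the 288 genes with 5000 or more, the class that holds SFPQ. It differed more with the length listed for the gene: 10.1% of genes of 100000 bases or more had no iCLIP entry, against 31.9% of genes under 10000 bases. FIGN, listed at 142617 bases in RNA-seq, and SFPQ, at 16768 bases, were both without one. COL1A1, with 44204 RNA-seq counts in irradiated and 35832 in untreated cells, was also absent from the iCLIP tables, so absence was found among the most highly counted RNAs. The part that listed length plays in an absent entry was not tested.

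**Figure D3:**
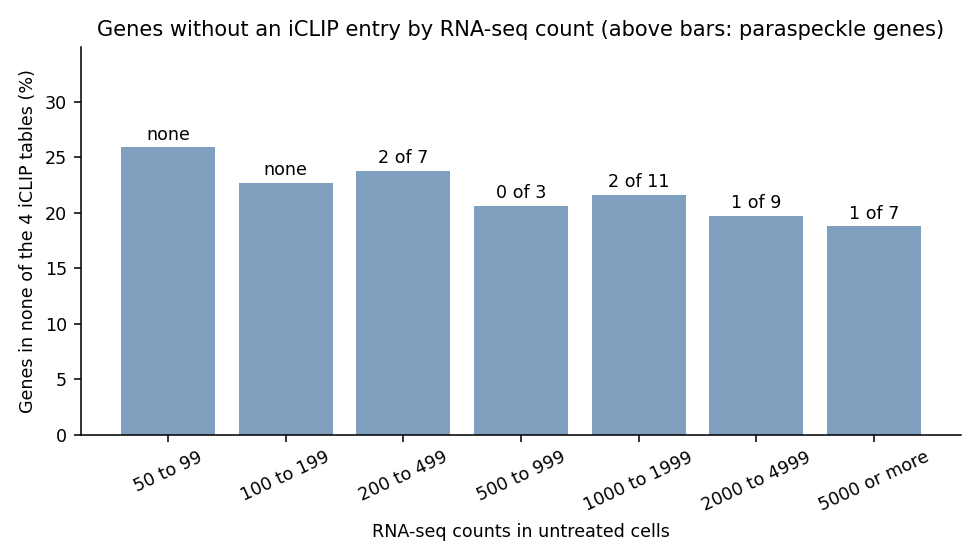
Percent of all genes that are in none of the 4 iCLIP tables (bars), by the gene's RNA-seq count in untreated cells, with the number of paraspeckle protein genes without an iCLIP entry, of those in the class, written above each bar (none where the class holds no such gene). Bars fall between 18.8% and 25.9%, and the 6 absent genes are spread over 4 of the 7 classes.

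The entries of several other genes covered a stretch unlike the RefSeq gene (GRCh38.p14), which bears on their counts. RBM14 was listed at 1331 bases in iCLIP, 10.0% of its RefSeq length, NUDT21 at 1423 bases (6.41%) and RBM12 at 5091 bases (31.9%). The entries of NONO (266%), RBMX (283%), CIRBP (279%) and FAM98A (426%) were longer than the RefSeq gene, while most of the others were within a few percent of it. Counts from overlapping genes cannot be told apart in such entries. MATR3 had a second entry of 298 bases in iCLIP with 6 and 2 counts in irradiated and 8 and 6 in untreated cells, and the long entry was used here.

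The FET genes encode RNA-binding proteins with low-complexity domains that localise to paraspeckles. TAF15 (ENSG00000270647, chromosome 17, 35809484 to 35847242) had the most TIRR iCLIP counts of the 38 genes, before any allowance for length, with 226 and 391 counts in the irradiated libraries and 498 and 495 in the untreated libraries, or 581 and 598 CPM in irradiated cells and 623 and 604 CPM in untreated cells. The irradiated libraries lay below the untreated ones by less than the test could resolve: the log2 fold change was -0.055 ± 0.13 (adjusted p = 0.900, edgeR) and the fold 0.963, with a 95% interval of 0.801 to 1.16. Its RNA-seq counts were 2860 in irradiated and 2884 in untreated cells (ratio 0.981, interval 0.931 to 1.03). EWSR1 had 47 and 61 iCLIP counts in the irradiated libraries and 66 and 88 in the untreated libraries, groups that overlapped in CPM, and a log2 fold change of 0.14 ± 0.21 (adjusted p = 0.845, edgeR). With 3466 RNA-seq counts in the irradiated library and 3262 in the untreated library, its ratio was 1.05 (1.001 to 1.10).

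The RBM genes held the 2 highest RNA-seq ratios of the genes with 100 or more counts, and 3 of the 6 had too few iCLIP counts to test. RBM14, whose protein is required for paraspeckle formation, had 3 and 15 iCLIP counts in the irradiated libraries and 10 and 9 in the untreated libraries, and the summed ratio was 1.41 (0.696 to 2.83) with a counting interval. In RNA-seq it had 1623 counts in the irradiated library and 1096 in the untreated library, a ratio of 1.46 (1.36 to 1.58) that stood at percentile 96.6 of all genes with at least 100 counts. Much of the RBM14 locus was listed under the readthrough entry RBM14-RBM4, of 26059 bases in iCLIP. That entry had 89 and 196 iCLIP counts in the irradiated libraries and 166 and 167 in the untreated libraries, irradiated above untreated in CPM, with a log2 fold change of 0.39 ± 0.16 (adjusted p = 0.257, edgeR), and an RNA-seq ratio of 1.18 (1.08 to 1.30). RBM3, a cold-inducible RNA-binding protein gene, had the highest RNA-seq ratio, with 2349 counts in the irradiated library and 1561 in the untreated library and a ratio of 1.49 (1.40 to 1.59). Its iCLIP values were 28.3 and 47.4 CPM in irradiated cells and 35.0 and 28.1 CPM in untreated cells, groups that overlapped, with a log2 fold change of 0.34 ± 0.33 (adjusted p = 0.718, edgeR).

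The other RBM genes had RNA-seq ratios nearer to 1. RBMX, a splicing regulator gene, had 2703 RNA-seq counts in the irradiated library and 3225 in the untreated library, a ratio of 0.829 (0.787 to 0.873) that was the lowest of the family. Its iCLIP counts of 21 and 15 in irradiated and 26 and 33 in untreated cells gave a log2 fold change of -0.047 ± 0.37 (adjusted p = 0.977, edgeR). RBM12 had 7 and 10 iCLIP counts in the irradiated libraries and 12 and 23 in the untreated libraries and a log2 fold change of -0.40 ± 0.46 (adjusted p = 0.771, edgeR), with an RNA-seq ratio of 1.09 (1.02 to 1.17). RBM7, which encodes a subunit of the nuclear exosome targeting complex, had 1 and 1 iCLIP counts in the irradiated libraries and 1 and 3 in the untreated libraries. Its RNA-seq ratio was 0.9953 (0.872 to 1.14). RBM4B, a paralog of the splicing regulator RBM4, had 7 and 7 iCLIP counts in the irradiated libraries and 8 and 8 in the untreated libraries, a summed ratio of 1.30 (0.587 to 2.84), and an RNA-seq ratio of 0.989 (0.852 to 1.15). Neither of these could be tested in iCLIP.

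CIRBP, the cold-inducible paralog of RBM3, had the third highest RNA-seq ratio of the genes with 100 or more counts. It had 957 RNA-seq counts in the irradiated library and 692 in the untreated library, a ratio of 1.37 (1.24 to 1.51) at percentile 94.7. In iCLIP it had 51 and 69 counts in the irradiated libraries and 113 and 101 in the untreated libraries, or 131 and 106 CPM in irradiated cells and 141 and 123 CPM in untreated cells, groups that overlapped. The iCLIP log2 fold change was -0.19 ± 0.19 (adjusted p = 0.733, edgeR) and the fold 0.879, with a 95% interval of 0.664 to 1.16, so that the iCLIP interval lay below the RNA-seq interval. The intervals rest on different kinds of error and different cells, and the difference between the assays was not tested. The CIRBP entry was also longer than the RefSeq gene, so it may hold counts from overlapping genes. The promoters of RBM3, RBM14 and CIRBP are shown because these genes had the 3 highest RNA-seq ratios among those with 100 or more counts. The 250 bases before each annotated start are given here, 5′ to 3′ on the coding strand, from RefSeq (GRCh38.p14), for RBM3 (chrX:48574234-48574483, + strand), RBM14 (chr11:66616380-66616629, + strand) and CIRBP (chr19:1269082-1269331, + strand). Capitals mark matches on either strand to the GC box, searched as GGGCGG. They also mark matches to the CCAAT box, searched by those 5 letters.
RBM3: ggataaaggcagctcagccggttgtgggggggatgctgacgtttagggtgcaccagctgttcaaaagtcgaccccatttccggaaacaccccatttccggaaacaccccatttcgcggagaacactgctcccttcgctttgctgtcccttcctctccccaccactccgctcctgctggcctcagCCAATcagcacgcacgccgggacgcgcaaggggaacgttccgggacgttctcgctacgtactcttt
RBM14: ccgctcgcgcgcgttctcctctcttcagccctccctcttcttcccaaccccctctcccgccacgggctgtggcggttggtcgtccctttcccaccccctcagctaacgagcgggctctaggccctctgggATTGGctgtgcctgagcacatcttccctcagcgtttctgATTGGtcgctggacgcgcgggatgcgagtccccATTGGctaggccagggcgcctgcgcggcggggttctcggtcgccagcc
CIRBP: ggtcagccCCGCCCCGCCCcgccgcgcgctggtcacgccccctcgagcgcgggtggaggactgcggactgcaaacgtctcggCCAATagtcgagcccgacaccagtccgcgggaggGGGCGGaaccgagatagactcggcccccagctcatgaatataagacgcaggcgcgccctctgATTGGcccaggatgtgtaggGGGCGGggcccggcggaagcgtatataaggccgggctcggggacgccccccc
The RBM3 window held 1 CCAAT match, the RBM14 window 3, and the CIRBP window 2 CCAAT and 4 GC box matches, of which 2 overlap. The mild-cold response element TCCCCGCC, described for the mouse Cirbp promoter, was searched on both strands and its letters were in none of the 3 windows. Of 35116 promoter windows of this length, 32.0% held CCAAT, 42.6% held GGGCGG and 7.75% held TCCCCGCC. Among the 51 windows of the 34 paraspeckle protein genes with an entry, the shares were 35.3%, 52.9% and 11.8%. GC content was 59.6% for RBM3, 67.6% for RBM14 and 71.2% for CIRBP, beside a median of 58.0% over all windows. A match to these letters is a description of the window and not evidence of binding.

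The hnRNP genes, which encode abundant nuclear RNA-binding proteins that package and splice pre-mRNA, included 3 of the 5 genes with the largest summed iCLIP counts (HNRNPH3, HNRNPH1 and HNRNPA1). HNRNPK, whose protein favours the long NEAT1 isoform by acting against cleavage factor I, had 36 and 62 iCLIP counts in the irradiated libraries and 66 and 71 in the untreated libraries, or 92.6 and 94.9 CPM in irradiated cells and 82.5 and 86.6 CPM in untreated cells. Irradiated libraries lay above untreated ones, and the log2 fold change of 0.15 ± 0.20 (adjusted p = 0.814, edgeR) did not pass. With 10025 RNA-seq counts in the irradiated library and 9821 in the untreated library, HNRNPK had a ratio of 1.01 (0.982 to 1.04). HNRNPH3 had 159 and 385 iCLIP counts in the irradiated libraries and 406 and 361 in the untreated libraries and a log2 fold change of 0.093 ± 0.16 (adjusted p = 0.865, edgeR). HNRNPH1, its close relative, had 141 and 292 iCLIP counts in the irradiated libraries and 311 and 300 in the untreated libraries and a log2 fold change of 0.11 ± 0.14 (adjusted p = 0.791, edgeR). HNRNPA1, a splicing repressor gene with many processed pseudogenes, had 139 and 292 iCLIP counts in the irradiated libraries and 308 and 265 in the untreated libraries and a log2 fold change of 0.20 ± 0.15 (adjusted p = 0.615, edgeR). In each of these 3 genes the irradiated and untreated libraries overlapped in CPM, and the RNA-seq ratios were 0.983 (0.935 to 1.03) for HNRNPH3, 0.9974 (0.947 to 1.05) for HNRNPH1 and 0.937 (0.909 to 0.965) for HNRNPA1.

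The whole hnRNP family of 8 genes was tested, and 5 had a positive log2 fold change under TMM scaling (4 with library totals alone), with adjusted p from 0.615 to 0.966. HNRNPF, HNRNPM, HNRNPR and HNRNPUL1 completed it, the last a gene whose protein also takes part in the resection of DNA ends. HNRNPUL1 had the lowest RNA-seq ratio of the family, with 6509 RNA-seq counts in the irradiated library and 7308 in the untreated library (ratio 0.881, interval 0.852 to 0.911). HNRNPM had the highest, 1.09 (1.04 to 1.14). Counts that could be shared with pseudogenes or paralogs make the HNRNPA1 and HNRNPH1 values less certain.

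Cleavage factor I, built of NUDT21 with CPSF6 or CPSF7, selects the polyadenylation site that makes the short NEAT1 isoform. CPSF7 (ENSG00000149532, chromosome 11, 61402729 to 61429975) had the lowest iCLIP p of the 38 genes. It had 80 and 141 iCLIP counts in the irradiated libraries and 116 and 133 in the untreated libraries, or 206 and 216 CPM in irradiated cells and 145 and 162 CPM in untreated cells, irradiated above untreated. The means were 211 ± 7.04 CPM in irradiated and 154 ± 12.2 CPM in untreated cells (SD, n = 2 each), and the fold was 1.38, with a 95% interval of 1.09 to 1.74. The log2 fold change of 0.46 ± 0.16 (adjusted p = 0.157, edgeR) did not pass over all tested genes. CPSF6 had 15 and 26 iCLIP counts in the irradiated libraries and 42 and 34 in the untreated libraries, irradiated below untreated in CPM, and a log2 fold change of -0.26 ± 0.28 (adjusted p = 0.758, edgeR). NUDT21 was not listed in irradiated replicate 1, had 2 counts in irradiated replicate 2 and 1 count in each untreated library, and was not tested. The RNA-seq ratios of the 3 genes were close to 1: 1.03 (0.971 to 1.10) for CPSF7, 0.990 (0.915 to 1.07) for CPSF6 and 0.971 (0.900 to 1.05) for NUDT21.

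Of the other RNA-binding genes 6 were tested, and under each scaling tried the log2 fold change of all 6 was below 0, with none passing the test. The median over all tested genes was 0.0016 under TMM scaling and -0.064 with library totals, so values below 0 were common among all tested genes. A change of scaling moves all genes by nearly the same amount, so the scalings are not separate support. Without irradiated replicate 2, AKAP8L was at 0.29, CIRBP at -0.0099 and SRSF10 at -0.046. In the same fit MATR3 was at -0.065, UBAP2L at -0.24 and FAM98A at -0.59. UBAP2L, a gene of a stress granule protein, had 38 and 53 iCLIP counts in the irradiated libraries and 94 and 93 in the untreated libraries, irradiated below untreated in CPM, and a log2 fold change of -0.39 ± 0.20 (adjusted p = 0.382, edgeR). MATR3, a nuclear matrix protein gene, had 64 and 93 counts in irradiated and 138 and 141 in untreated cells and a log2 fold change of -0.18 ± 0.17 (adjusted p = 0.694, edgeR). SRSF10, which encodes a splicing factor, FAM98A, which encodes a partner of the tRNA ligase complex, and AKAP8L, which encodes a nuclear anchoring protein, had log2 fold changes of -0.26, -0.37 and -0.21, with adjusted p of 0.717, 0.734 and 0.829 in edgeR. AKAP8L was among the lower RNA-seq ratios with 355 RNA-seq counts in the irradiated library and 405 in the untreated library (ratio 0.867, interval 0.750 to 1.002).

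Chromatin and zinc finger genes included AHDC1, an AT-hook gene, and SS18L1, a SWI/SNF subunit gene. AHDC1 had 193 and 305 iCLIP counts in the irradiated libraries and 367 and 381 in the untreated libraries and a log2 fold change of 0.057 ± 0.13 (adjusted p = 0.901, edgeR). Its summed iCLIP count was the third highest of the 38 genes, and its irradiated libraries lay just above the untreated ones in CPM. Its RNA-seq counts were 502 in irradiated and 583 in untreated cells (ratio 0.851, interval 0.754 to 0.961). SS18L1 had 62 and 111 iCLIP counts in the irradiated libraries and 121 and 103 in the untreated libraries and a log2 fold change of 0.26 ± 0.18 (adjusted p = 0.557, edgeR), with 353 RNA-seq counts in the irradiated library and 286 in the untreated library (ratio 1.22, interval 1.04 to 1.43). ZNF444 had 32 and 64 iCLIP counts in the irradiated libraries and 79 and 68 in the untreated libraries, a log2 fold change of 0.012 ± 0.21 (adjusted p = 0.991, edgeR), and 277 RNA-seq counts in the irradiated library and 373 in the untreated library (ratio 0.734, interval 0.626 to 0.860). ZC3H6 was scarce in both assays, with 4 and 3 iCLIP counts in the irradiated libraries and 12 and 9 in the untreated libraries, and 18 RNA-seq counts in irradiated and 13 in untreated cells.

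SMARCA4, the ATPase gene of SWI/SNF chromatin remodellers, had irradiated replicates that were far apart. It had 56 and 38 iCLIP counts in the irradiated libraries and 79 and 107 in the untreated libraries, or 144 and 58.1 CPM in irradiated cells and 98.8 and 131 CPM in untreated cells, and a log2 fold change of -0.30 ± 0.29 (adjusted p = 0.709, edgeR). Without irradiated replicate 1 the log2 fold change was -0.98 (adjusted p = 0.0103, edgeR), which would be called, and without irradiated replicate 2 it was 0.33 (adjusted p = 0.634, edgeR). The value of SMARCA4 therefore rests on which irradiated library is kept, and with 1 irradiated library the fit assumes that it varies as the untreated ones do.

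In RNA-seq most of the paraspeckle protein genes had ratios near 1. Of the 37 genes that reached 100 counts in 1 or both libraries, none reached a 2-fold ratio with an interval wholly beyond 1.5-fold, against 1.49% of all 12977 such genes. At 1.5-fold with an interval beyond 1 there was 1, FIGN, against 6.59% (3% higher and 3.59% lower in irradiated cells). FIGN had 256 RNA-seq counts in the irradiated library and 387 in the untreated library, a ratio of 0.654 (0.556 to 0.768) and the lowest of the 37. The counting interval lay above 1 for 8 genes (21.6%, against 20.4% of all genes) and below 1 for 8 (21.6%, against 22%). The median log2 ratio was -0.016, beside -0.0025 for all genes. Ratios lay within 1.1-fold of 1 for 26 of the 37 genes (70.3%), against 46.1% of all genes. The paraspeckle protein genes were also more highly counted, with a median larger count of 1779.5 against 498, and among genes with at least 1000 counts the shares within 1.1-fold were 85.2% (23 of 27) and 56.9%.

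**Figure D4:**
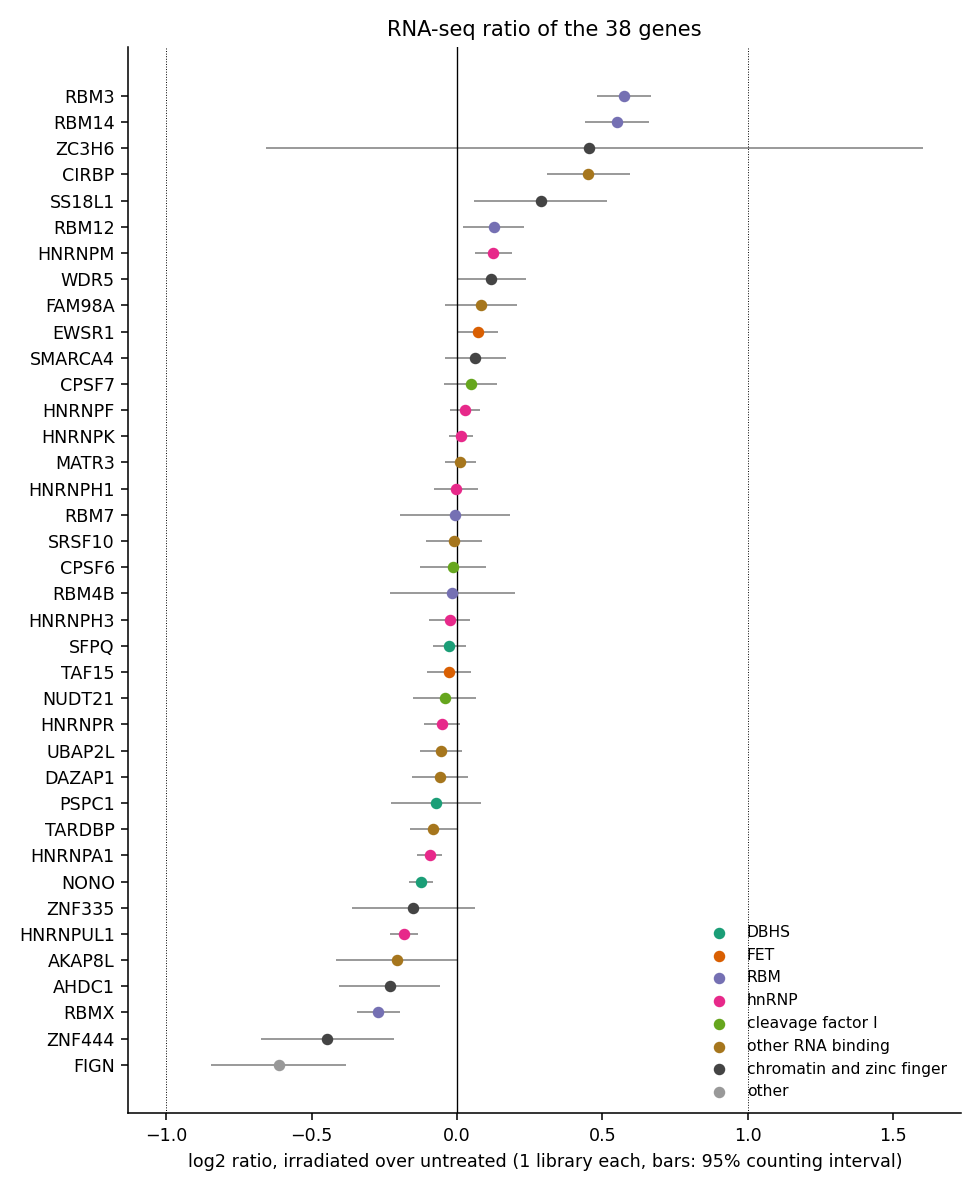
log2 ratio of TMM-scaled RNA-seq counts, irradiated over untreated (1 library each), for the 38 genes, with points coloured by protein family, bars for the 95% counting interval, a solid line at 0 and dotted lines at a 2-fold ratio. RBM3, RBM14 and CIRBP lie at the right and ZNF444 and FIGN at the left, and the wide bar of ZC3H6 rests on 18 counts in irradiated and 13 in untreated cells.

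Most paraspeckle protein RNAs, like the RNAs of most genes, made up a smaller share of TIRR iCLIP than of RNA-seq gene counts. The ratio used is a gene's share of iCLIP gene counts over its share of RNA-seq gene counts, with 0.5 added to each count, for the 31 genes with at least 50 RNA-seq counts and an iCLIP entry. The median ratio was 0.404 in irradiated cells, where the median of all 11412 genes was 0.845, and 0.495 in untreated cells, where that of all 11385 genes was 0.875. In irradiated cells 21 of the 31 lay below the median of all genes, and in untreated cells 20. In untreated cells 8 lay below the lower quartile of all genes and 5 above the upper quartile. A ratio above 1 was found for 10 genes in irradiated cells (32.3%, against 46.0% of all genes) and for 11 in untreated cells (35.5%, against 46.6%). These ratios set TIRR_FLAG cells against WT cells, and they carry no test. Nor were the genes matched for RNA-seq count, and the paraspeckle protein genes were more highly counted than genes in general. Among the 31 genes, higher RNA-seq shares went with lower ratios in untreated cells (Pearson r of -0.388). The RNA-seq share is also the denominator of the ratio, so this r does not show that RNA level goes with TIRR recovery.

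The highest ratios in untreated cells belonged to AHDC1 (12.2 in irradiated cells and 10.6 in untreated cells), SS18L1 (5.96 in irradiated cells and 6.47 in untreated cells), ZNF444 (4.18 in irradiated cells and 3.26 in untreated cells), TAF15 (2.63 in irradiated cells and 2.84 in untreated cells) and CIRBP (1.59 in irradiated cells and 2.56 in untreated cells). In irradiated cells PSPC1, HNRNPH3, HNRNPH1 and AKAP8L stood above CIRBP. The lowest ratios in both conditions belonged to NUDT21 (0.0242 in irradiated cells and 0.0180 in untreated cells), NONO (0.0823 in irradiated cells and 0.0532 in untreated cells), RBM7 (0.0850 in irradiated cells and 0.0897 in untreated cells), HNRNPK (0.120 in irradiated cells and 0.116 in untreated cells) and RBM14 (0.129 in irradiated cells and 0.150 in untreated cells). The RBM14 entry covered 1331 bases in iCLIP and 5007 in RNA-seq, so its shares are over unlike stretches. The readthrough entry RBM14-RBM4 had a ratio of 3.12 in irradiated cells and 3.04 in untreated cells. That entry covered 26059 bases in iCLIP and 22352 in RNA-seq, also unlike stretches, so its ratio does not stand for RBM14. NUDT21 likewise covered 1423 bases in iCLIP and 2237 in RNA-seq. The entries of CIRBP and NONO were longer than the RefSeq gene, and counts from overlapping genes cannot be told apart in them. Within families the genes were far apart: PSPC1 had a ratio of 2.04 in irradiated cells and 1.999 in untreated cells, and CPSF7 one of 1.31 in irradiated cells and 1.04 in untreated cells, beside CPSF6 with 0.404 in irradiated cells and 0.502 in untreated cells. NONO stood at percentile 7.89 of all genes in irradiated and 5.03 in untreated cells. HNRNPA1, with 8408 RNA-seq counts in the irradiated library and 8873 in the untreated library, had a ratio of 0.610 in irradiated cells and 0.533 in untreated cells.

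Genes counted over a longer stretch had higher ratios. Across the 31 genes, log2 listed length and the log2 ratio in untreated cells had a Pearson r of 0.511 and a Spearman rho of 0.408. Across all 11385 genes r was 0.638 and rho 0.641. These are descriptions across genes, which share the same libraries and are not independent. NONO, at 46709 listed bases, and NUDT21, at 1423, were both low, while HNRNPH3, at 12020, had a ratio of 2.01 in irradiated cells and 1.98 in untreated cells. Counted per kilobase of listed length in untreated cells, 25 of the 28 paraspeckle protein genes that have at least 20 summed untreated counts and 200 listed bases lay above the median of all 9328 ranked genes (0.702 counts per kb), and their own median was 2.94. The same counts set the filter and the rank, so genes with few counts and the 6 without an iCLIP entry were not ranked. Counts per kilobase are also not adjusted for RNA level. The median larger RNA-seq count of the paraspeckle protein genes was 1779.5, against 498 for all genes with at least 100 counts. HNRNPA1 had 69.5 counts per kb (percentile 99.7), HNRNPH3 31.9 counts per kb (percentile 99.4), HNRNPH1 14.8 counts per kb (percentile 98.5) and TAF15 9.07 counts per kb (percentile 96.8). NONO had 0.674 counts per kb (percentile 48.5). For most of these genes the listed length was close to the RefSeq span with introns, so values per kilobase also depend on how much of the span is exon. Entries unlike the RefSeq gene change the values too: NONO was counted over 46709 bases, beside a RefSeq length of 17534.

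**Figure D5:**
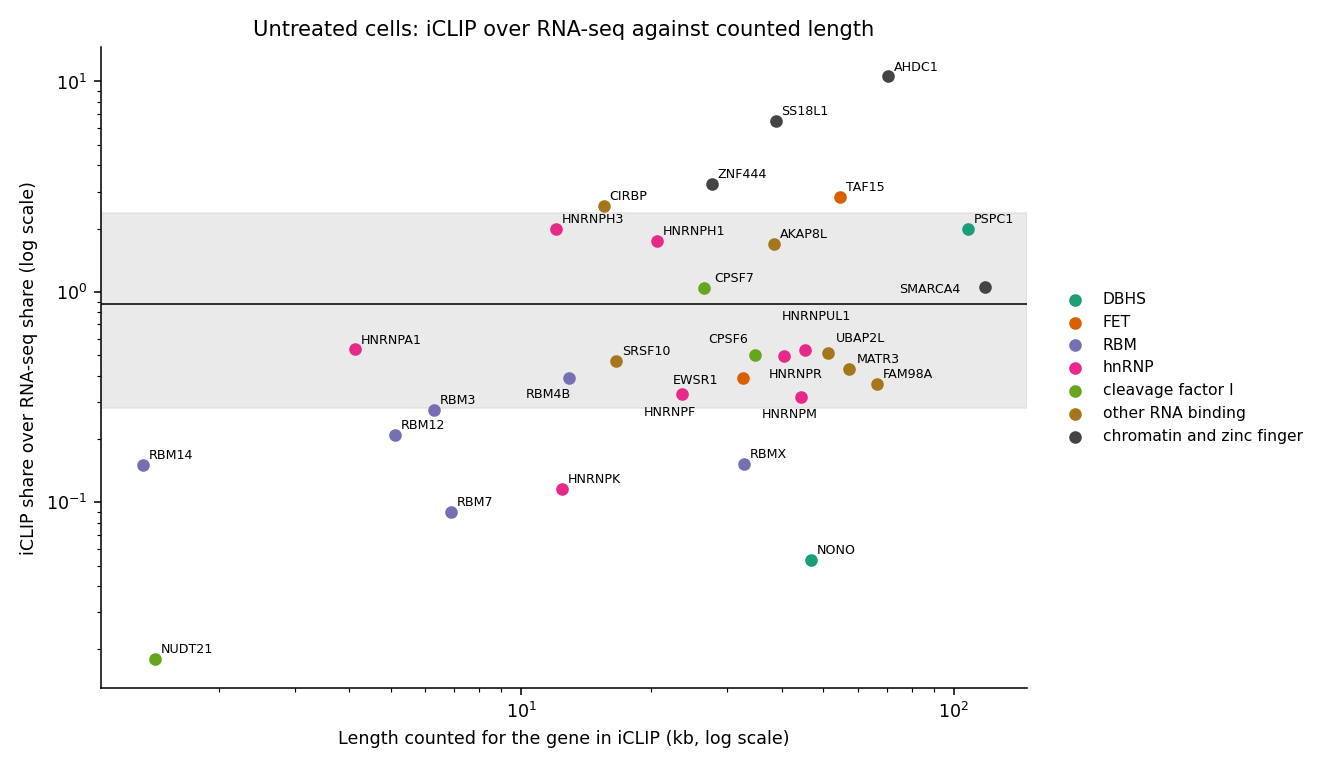
iCLIP share over RNA-seq share in untreated cells (log scale) against the length listed for the gene in iCLIP (kb, log scale) for 31 genes, coloured by protein family. The line is the median of all genes with at least 50 RNA-seq counts (0.875) and the grey band their quartiles (0.280 to 2.38). AHDC1 and SS18L1 are the highest of the 5 genes above the band, and NUDT21 and NONO the lowest of the 8 below it.

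Genes outside the 38 that have also been reported in paraspeckles were examined beside them. Of 12 such genes, 11 were in a table, 9 had an iCLIP entry and 7 were tested, and none was called, against 3.5% of all tested genes. Among the 8 with at least 100 RNA-seq counts, RUNX3 had the highest RNA-seq ratio (309 RNA-seq counts in the irradiated library and 159 in the untreated library, ratio 1.92, interval 1.58 to 2.34) and BCL11A the lowest (233 RNA-seq counts in the irradiated library and 351 in the untreated library, ratio 0.656, interval 0.554 to 0.777). These were 2 of 8 genes past 1.5-fold with an interval beyond 1, against 6.59% of all genes.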

How the data were processed

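The authors deposited 1 table per library with whole-number cDNA counts per gene, a length per gene, and each count as a percent of all counts in the library, per the file headers. The submitters' processing notes name hg38 and kallisto 0.44.0, with no role given, and no source used here names the counter, its strand setting or its treatment of overlapping genes. The deposited percent equals 100 times the count over the listed total in every table. The intergenic line, 30.6% to 31.3% of iCLIP and 44.4% of RNA-seq counts, names no gene and was left out of library sizes and tests. Per gene, intervals of shares and of count ratios are 95% exact (Clopper-Pearson for shares, conditional binomial for ratios). They cover counting error only and leave out the spread between replicates.

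iCLIP counts were tested with edgeR 4.0.16 (R 4.3.3): filterByExpr, TMM scaling, glmQLFit and glmQLFTest, irradiated over untreated, two-sided, with Benjamini-Hochberg adjustment over all tested genes at 0.05. Errors of log2 fold changes are standard errors. Replicates differed by more than sampling noise (chi-square per degree of freedom 1.87 for irradiated and 1.42 for untreated libraries). RNA-seq, with 1 library per condition, was not tested: TMM-scaled ratios were set against limits of 100 counts, 2-fold and an interval beyond 1.5-fold. Scaling, filter, tool (DESeq2 1.42.0), the replicate block, fold limit, prior count and left-out libraries were varied.

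Named genes are those central to paraspeckles, the 5 at each end of each measure, and every gene absent from an iCLIP library. The genes, lists and groups were chosen with earlier results of these data known. RefSeq names, lengths, coordinates and promoter windows (GRCh38.p14) were matched by gene ID or symbol, and 99.9% of iCLIP and 99.7% of RNA-seq IDs matched.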

Additional observations from a re-analysis of the deposited data

How the results depend on the processing

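None of the 27 tested paraspeckle protein genes was called under DESeq2's size factors, library totals, no filter on low counts, DESeq2 or the replicate block. DESeq2 gave an adjusted p to only 12 of them and could not call the rest. Leaving out each library in turn gave 0 to 1 called, the 1 being SMARCA4 without irradiated replicate 1, and the median log2 fold change ran from -0.071 to -0.035. Over all tested genes, 190 were called with the replicate number as a block and 123 with DESeq2, against 323 in edgeR without a block, and 186 to 421 when 1 library was left out. With the replicate block the median of the paraspeckle protein genes was -0.031. The numbers in the labels are not said to pair libraries, and deviations of equally numbered libraries had a correlation of -0.0935 over 9230 genes. Of 243 fold changes of single genes under these alternatives, 213 kept their direction and their side of the threshold and 29 reversed, all of the 29 uncalled in both. Genes without an adjusted p in DESeq2 are counted there as uncalled. With library totals PSPC1 was at -0.054, HNRNPUL1 at -0.034, AHDC1 at -0.011 and ZNF444 at -0.054. Without a filter PSPC1 was at -0.020 and ZNF444 at -0.018. With DESeq2 PSPC1 was at -0.0075, RBMX at 0.0022, HNRNPUL1 at -0.0096 and ZNF444 at -0.031. Leaving out each library in turn moved log2 fold changes over -0.10 to 0.15 for PSPC1, -0.043 to 0.35 for EWSR1, -0.26 to 0.054 for HNRNPF, -0.15 to 0.59 for RBM3, -0.66 to 0.57 for RBMX, -0.056 to 0.24 for HNRNPH1, -0.21 to 0.31 for HNRNPH3, -0.27 to 0.24 for HNRNPUL1, -0.65 to 0.29 for AKAP8L, -0.98 to 0.33 for SMARCA4, -0.14 to 0.13 for ZNF444 and -0.78 to 0.12 for RBM12. In RNA-seq, a fold limit of 1.5 gave 1 gene past the limit in place of 0. The median log2 ratio of iCLIP over RNA-seq shares was -1.31 in irradiated cells and -1.01 in untreated cells. With shares of all counts, intergenic counts included, it was -0.998 and -0.70, with a prior count of 2 it was -1.20 in irradiated cells, and with 1 iCLIP library left out it was -1.29 to -1.17 in irradiated and -1.11 to -0.98 in untreated cells. Including the intergenic counts changes the ratio of every gene by nearly the same factor, set by the library totals, so that shift is not particular to these genes. The cause of the other shifts was not tested. iCLIP depth of 400723 to 799709 gene counts limits most the genes with under about 10 counts per library. The smallest change that could be seen for such genes was not tested.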

Other observations

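Across the 31 paraspeckle protein genes with a ratio in both conditions, the log2 ratio of iCLIP over RNA-seq shares in irradiated cells and that in untreated cells had a Pearson r of 0.987 and a Spearman rho of 0.981. This is a description across genes: both ratios share the counted lengths and transcripts, and genes are not independent replicates. Across the 27 tested genes, the iCLIP log2 fold change and the RNA-seq log2 ratio had an r of 0.0476 and a rho of -0.0830, with no relation visible in either direction. Higher RNA-seq shares went with lower iCLIP over RNA-seq ratios (r of -0.388, rho of -0.331, 31 genes), and the RNA-seq share enters both measures.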
